A study of Mus musculus with 12 samples.

Results

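The 10 genes described here are Il1a, Il1b, Il1rn, Il6, Tnf, Ptgs2, Il18, Il33, Tslp and Nfkbia, of 55401 genes in the expression table. They were named for their known roles, as inflammatory mediators that interleukin-10 (IL-10) restrains or as close partners of those mediators. All 10 had at least 1 FPKM (sequenced fragments scaled by transcript length and library total) in at least 3 of the 12 libraries and so entered the tests. By the labels, each library was made from mRNA of a tumour of MTC-Q1 oral cancer cells, a mouse line, in the mouth of C57BL/6 mice, and marker genes given below go against these labels in part. The treatments without IL-10 were a control isotype labelled IgG1-Fc (Ctrl-IgG) and an anti-CSF1R antibody that blocks the growth factor receptor of macrophages (aCSF1R). Those with IL-10 were IL-10 joined to an Fc (IL-10-Fc) and BF10, in which human IL-10 is fused to the anti-CSF1R antibody. Human IL-10 also acts on the mouse receptor. Each treatment had 3 libraries, and the labels give neither the age nor the sex of the animals.

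IL-10 signals through its receptor and STAT3, mostly in macrophages and other myeloid cells, and lowers the output of inflammatory genes that the factor NF-kB drives. IL-1α, IL-1β, IL-18 and IL-33 are cytokines of the IL-1 family. IL-1α, IL-33 and TSLP are alarmins of epithelial and stromal cells, and IL-1α and IL-33 are held ready there and released on damage. IL-1β, TNF and IL-6 are instead mainly products of activated myeloid cells. Il1rn encodes the receptor antagonist that blocks IL-1α and IL-1β, Ptgs2 the inducible enzyme of prostaglandin synthesis, and Nfkbia the inhibitor IκBα, which NF-kB itself induces.

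The 120 bases before the start site are shown for 6 of the genes, 4 because they hold a TATA box just before the start, and Il6 and Nfkbia because they hold a kB match, the letters bound by NF-kB. They come from RefSeq (GRCm38.p6), where 9 of the 10 genes had a promoter window; they run 5′ to 3′ on the gene's own strand. Capitals mark a TATA box (TATAAA), an AP-1 site (TGANTCA) or a kB consensus match, each searched on both strands.
Il1a, chr2:129309973-129310092, minus strand: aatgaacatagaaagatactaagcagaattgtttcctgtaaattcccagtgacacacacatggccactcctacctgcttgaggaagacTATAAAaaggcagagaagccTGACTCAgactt
Il1b, chr2:129371140-129371259, minus strand: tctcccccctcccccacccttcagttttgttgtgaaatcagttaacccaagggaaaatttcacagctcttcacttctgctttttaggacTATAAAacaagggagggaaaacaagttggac
Il33, chr19:29945670-29945789, plus strand: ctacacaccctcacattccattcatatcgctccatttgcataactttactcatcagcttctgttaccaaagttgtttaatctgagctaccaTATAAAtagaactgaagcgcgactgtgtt
Tnf, chr17:35202008-35202127, minus strand: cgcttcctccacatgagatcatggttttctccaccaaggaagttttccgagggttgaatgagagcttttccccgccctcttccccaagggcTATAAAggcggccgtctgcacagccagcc
Il6, chr5:30012994-30013113, plus strand: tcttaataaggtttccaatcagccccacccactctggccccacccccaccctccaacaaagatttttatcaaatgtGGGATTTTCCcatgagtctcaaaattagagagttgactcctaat
Nfkbia, chr12:55492648-55492767, minus strand: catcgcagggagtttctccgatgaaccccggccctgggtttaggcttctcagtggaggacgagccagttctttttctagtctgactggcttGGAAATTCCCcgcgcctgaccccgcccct

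A TATA box on the gene's own strand began 29 to 32 bases before the start in Il1a, Il1b, Tnf and the second of the 2 Il33 windows. The same letters also occurred away from that place, at -203 in the first Il33 window and, on the other strand, at -175 in Il18, 14 in Il1rn and 19 in Nfkbia, counted from the start. Il1a had an AP-1 site beside its start as well, and Il6 and the first Il1rn window had such a site farther away, at -249 and -141. The kB consensus occurred in the windows of Il6 and Nfkbia and in no other window of the 9 genes. It was present in 5.8% of the 32851 windows of 250 bases before and 50 bases after a start, against 13.6% for the TATA letters anywhere in the window and 7.81% for the AP-1 site. A STAT site (TTCNNNGAA), held by 8.3% of all windows, was in none of the 12 windows of these genes. These matches describe letters only.

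Before the gene values, the libraries need a description. The 6 libraries with an IL-10 part (IL-10-Fc and BF10) and the 6 without one (Ctrl-IgG and aCSF1R) differed in genes that mark sex, strain and cell type. Xist, the RNA of the inactive X chromosome, was at most 0.04 FPKM in the 6 without and 17.1 to 30.7 in the 6 with IL-10, and the Y-linked Eif2s3y was 4.23 to 11.3 in the first and at 0 to 3.29 in the second. H2-Ea, an MHC class II gene that C57BL/6 mice do not express, was at most 0.27 FPKM without and at least 553 with IL-10. Krt18, a keratin of simple epithelium, was at most 0.09 FPKM without and 294 to 614 with IL-10. The squamous markers of an oral tumour went against the label in part: Krt14 was 0 to 0.17 FPKM in Ctrl-IgG replicates 1 and 2 and aCSF1R replicate 3, 12.2 to 31.7 in the IL-10 groups, and 164 to 431 in the other 3 libraries. The sex, strain background, tumour line and cell makeup of the 2 sides therefore cannot be told apart from the IL-10 part. Every difference between a group with IL-10 and a group without it carries this limit. Whether the tumour line or the host differed between the sides, which the labels do not say, was not tested. In 4 libraries (BF10 replicate 1, IL-10-Fc replicates 1 and 2, Ctrl-IgG replicate 2) the FPKM sum was highest and the mitochondrial share was 6.57% to 9.04%, against 2.99% to 3.61% in the other 8. These 4 were left out in an alternative chosen after seeing the data. The sample titles end in a code of 2 numbers whose meaning is not stated. The first number was 1, 2, 2 and 4 in the 4 libraries and 1, 3, 3, 5, 6, 6, 6 and 7 in the other 8, so that within the IL-10 groups it divided the libraries as the FPKM sum did.

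Of the 10 genes, 5 were higher and 2 were lower in the 6 libraries with an IL-10 part than in the 6 without. Il1a, Il1b, Il18, Il33 and Tslp were higher, and Il1rn and Tnf were lower. Il6, Ptgs2 and Nfkbia did not pass the test. Tslp entered the fit only through the libraries with IL-10, and its count among the higher genes here and in the comparisons below carries this limit. A call required a change of at least 1.5-fold and an adjusted p under 0.05 in the limma fit of 15813 genes on log2(FPKM + 1), by which 14.6% of all genes tested were called higher, 28.6% lower and 43.2% in either direction. The median log2 difference was 0.81 over the 10 genes and -0.30 over all genes. With median-of-ratios size factors the median of all genes moved to -0.01, 20.6% were called higher and 20.6% lower, and the same 7 of the 10 genes were called in the same direction. The same 7 were also called with each of the 12 libraries left out in turn and without the 4 libraries of highest FPKM sum. With the first number of the title code as a term, only the 3 libraries that share the number 6 (BF10 replicate 2, with IL-10-Fc replicate 3, against aCSF1R replicate 3) bear on the difference. Il1a (1.78 ± 0.33), Il18 (1.88 ± 0.27) and Tslp (1.34 ± 0.25, SE) were then called, and Il1b (0.39 ± 0.49), Il33 (0.64 ± 0.51), Il1rn (-1.16 ± 0.44) and Tnf (-0.69 ± 0.33) were not. Over all 15813 genes, 1714 were called higher and 1802 lower in that fit. The libraries of the 2 sides did not overlap for Il1a, Il18, Il33 and Tslp, all higher; over all genes, 9.73% were higher and 17.6% lower without overlap.

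**Figure D1:**
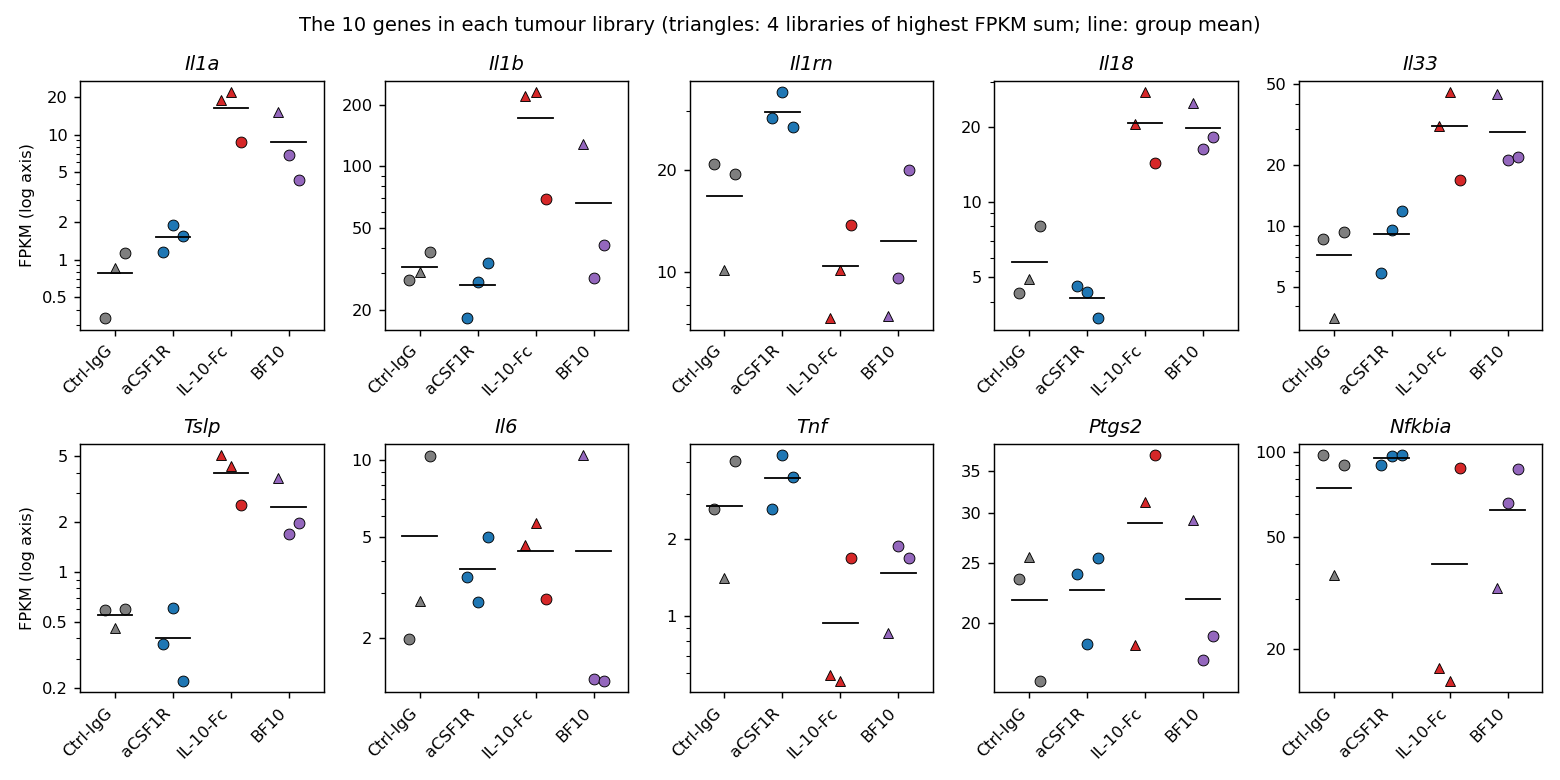
FPKM (log axis) of each of the 10 genes in the 12 libraries by treatment group, with 1 point per library, a line at the group mean and triangles for the 4 libraries of highest FPKM sum. Il1a, Il18, Il33 and Tslp were higher in each IL-10-Fc and BF10 library than in each Ctrl-IgG and aCSF1R library, and the other 6 genes overlapped.

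Il1a, the gene of IL-1α (chr2:129299610-129309972, GRCm38), had the largest difference of the 10. Its FPKM was 0.34, 0.86 and 1.14 in the Ctrl-IgG libraries and 1.16, 1.88 and 1.55 in those of aCSF1R. The IL-10-Fc libraries had 18.8, 21.8 and 8.68 and the BF10 libraries 15.0, 6.91 and 4.30. The lowest library with IL-10 was thus above the highest library without it. The difference on the log2 scale was 2.51 ± 0.30 (SE, 6 against 6 libraries, limma adjusted p = 7.1e-05), and 1.94 without the 4 libraries of highest FPKM sum.

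Il1b (chr2:129364570-129371139) is the neighbour of Il1a and encodes IL-1β, which caspase-1 activates. It stood at 28.0, 30.6 and 38.2 FPKM in Ctrl-IgG and at 18.1, 27.4 and 33.6 in aCSF1R, and rose to 220, 230 and 69.5 in IL-10-Fc. In BF10 it was 128.7, 28.4 and 41.6, so 1 BF10 library lay inside the range of the libraries without IL-10. The difference was 1.63 ± 0.40 (SE, 6 against 6, limma adjusted p = 0.0066) and fell to 0.74 ± 0.24 (adjusted p = 0.035) without the 4 libraries of highest FPKM sum, 3 of which held the highest Il1b values.

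Il1rn (chr2:24336853-24351494), the antagonist of both, moved the other way. It was 20.8, 10.1 and 19.5 FPKM in Ctrl-IgG and 28.5, 34.0 and 26.8 in aCSF1R, the group with the highest level. With IL-10-Fc the values were 7.28, 10.1 and 13.7, and with BF10 they were 7.42, 9.58 and 20.0. The sides overlapped through Ctrl-IgG replicate 2 and BF10 replicate 3. The log2 difference was -0.97 ± 0.27 (SE, 6 against 6, limma adjusted p = 0.012), and -0.78 without the 4 libraries of highest FPKM sum.

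The ratio of Il1b to Il1rn within a library is free of any scaling between libraries; it was examined after the values of both genes were seen. In FPKM it was 1.34, 3.02 and 1.96 in the Ctrl-IgG libraries and 0.635, 0.807 and 1.25 in those of aCSF1R. The IL-10-Fc libraries had 30.3, 22.7 and 5.06 and the BF10 libraries 17.3, 2.96 and 2.07. aCSF1R alone held libraries with less Il1b than Il1rn. The mean log2 ratio was 3.08 ± 1.64 (SD, n = 6) with and 0.393 ± 0.823 (SD, n = 6) without IL-10, a difference of 2.69, and 1.5 without the 4 libraries of highest FPKM sum (3 against 5 libraries). Because both genes had already been called in opposite directions over these libraries, the ratio was not tested.

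Il18 (chr9:50554827-50581840) encodes a caspase-1 substrate that induces interferon γ. It was 4.35, 4.94 and 7.99 FPKM in Ctrl-IgG and 4.62, 4.36 and 3.43 in aCSF1R. With IL-10-Fc the values were 20.5, 27.4 and 14.3, and with BF10 they were 24.9, 16.3 and 18.1. The groups with IL-10 lay well above the others and close to each other. The log2 difference was 1.84 ± 0.21 (SE, 6 against 6, limma adjusted p = 4.7e-05), and 1.49 without the 4 libraries of highest FPKM sum.

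Il33 (chr19:29925114-29960718), a nuclear alarmin of epithelial, endothelial and stromal cells, was 8.62, 3.49 and 9.28 FPKM in Ctrl-IgG and 5.86, 9.53 and 11.8 in aCSF1R. The IL-10-Fc libraries had 31.0, 45.5 and 16.9 and the BF10 libraries 44.5, 21.1 and 21.9. The 3 highest values belonged to libraries of high FPKM sum. The log2 difference of 1.76 ± 0.32 (SE, 6 against 6, limma adjusted p = 0.0011) became 1.03 ± 0.21 (adjusted p = 0.0051) without the 4 such libraries.

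Tslp, on chromosome 18, encodes an epithelial cytokine that acts on dendritic cells and type 2 lymphocytes, and had the lowest mean FPKM of the 10 in both groups without IL-10. It was 0.59, 0.46 and 0.60 in Ctrl-IgG, 0.37, 0.61 and 0.22 in aCSF1R, 5.10, 4.37 and 2.53 with IL-10-Fc and 3.70, 1.71 and 1.99 with BF10. It was over 1 FPKM in the 6 libraries with IL-10 and in no other, so its pass through the low-value filter rests on the side where it was high. Its log2 difference was 1.46 ± 0.19 (SE, 6 against 6), a value that the added 1 FPKM makes smaller, and 1.09 without the 4 libraries of highest FPKM sum. In the alternative that tested every gene above 0 FPKM, which Tslp enters on either side, the limma adjusted p was 0.00057.

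Tnf (chr17:35199381-35202007), the myeloid cytokine best known as a target of IL-10 restraint, was lower. It was 2.62, 1.41 and 4.04 FPKM in Ctrl-IgG and 2.62, 4.26 and 3.50 in aCSF1R. With IL-10-Fc the values were 0.59, 0.56 and 1.69, and with BF10 they were 0.86, 1.88 and 1.69. Of the libraries without IL-10, Ctrl-IgG replicate 2 alone fell within the range of the libraries with it. The log2 difference was -0.88 ± 0.23 (SE, 6 against 6, limma adjusted p = 0.0094), and -0.67 without the 4 libraries of highest FPKM sum. Those 4 libraries held the 4 lowest Tnf values.

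Il6 (chr5:30013114-30019981), a cytokine of myeloid cells and fibroblasts, varied more within groups than between them. Its FPKM was 1.97, 2.80 and 10.3 in Ctrl-IgG, 3.47, 2.77 and 4.98 in aCSF1R, 4.62, 5.67 and 2.85 with IL-10-Fc and 10.5, 1.37 and 1.35 with BF10. Ctrl-IgG and BF10 each had 1 library far above their other 2. The log2 difference was -0.08 ± 0.45 (SE, 6 against 6, limma adjusted p = 0.89), its sign changed between settings, and it was -0.79 ± 0.45 without the 4 libraries of highest FPKM sum.

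Ptgs2 (chr1:150100031-150108227), the gene of COX-2, was 23.6, 25.6 and 16.2 FPKM in Ctrl-IgG and 24.0, 18.5 and 25.4 in aCSF1R. The IL-10-Fc libraries had 18.4, 31.2 and 37.1 and the BF10 libraries 29.2, 17.4 and 19.1. The 4 groups overlapped, and the log2 difference was 0.15 ± 0.22 (SE, 6 against 6, limma adjusted p = 0.59).

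Nfkbia (chr12:55489410-55492647) was the most abundant of the 10 per length in the groups without IL-10. It was 97.2, 36.5 and 89.8 FPKM in Ctrl-IgG and 89.9, 97.0 and 97.5 in aCSF1R, 17.0, 15.3 and 87.8 with IL-10-Fc and 32.9, 65.9 and 87.3 with BF10. The 4 lowest values were those of the 4 libraries of highest FPKM sum, 1 of which was a Ctrl-IgG library. The log2 difference was -0.97 ± 0.44 (SE, 6 against 6, limma adjusted p = 0.09) with all libraries and -0.20 ± 0.10 (adjusted p = 0.13) without those 4. It passed the test when 1 library was left out, at -1.19 without Ctrl-IgG replicate 2 and at -1.36 without IL-10-Fc replicate 3.

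**Figure D2:**
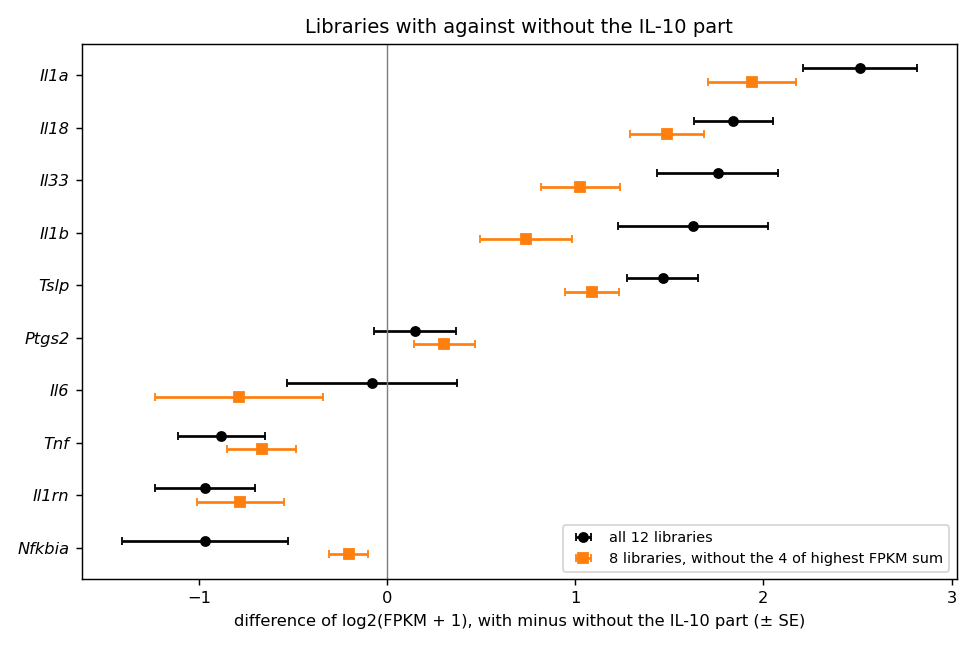
Difference of log2(FPKM + 1) between libraries with and without the IL-10 part (± SE) for each gene, over all 12 libraries (circles) and without the 4 libraries of highest FPKM sum (squares). Il1a lies highest at 2.51, and Nfkbia moves from -0.97 to -0.20 when the 4 libraries are left out.

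IL-10-Fc against Ctrl-IgG sets the cytokine without the antibody beside the control, within the limit of sex, strain, tumour line and cell makeup given above. Il1a, Il1b, Il33, Il18 and Tslp were higher, by 3.23, 2.22, 1.97, 1.68 and 1.65 on the log2 scale (limma adjusted p of 0.0003 to 0.012, 3 against 3 libraries), and none of the 10 was called lower. Among all genes 10.1% were called higher, 23.6% lower and 33.7% in either direction; with size factors 16.4% were higher and 16.8% lower. The median was 1.01 over the 10 genes and -0.39 over all genes. Tnf differed by -0.91 ± 0.33 (SE, adjusted p = 0.053), and was called without Ctrl-IgG replicate 2 (-1.18) or without IL-10-Fc replicate 3 (-1.16). Nfkbia differed by -1.23 ± 0.62 (adjusted p = 0.15) and was called without IL-10-Fc replicate 3 (-2.02). The call on Il1b was lost without IL-10-Fc replicate 1 (1.95, adjusted p = 0.052) and without replicate 2 (1.92, adjusted p = 0.052). Without the 4 libraries of highest FPKM sum, which leaves 1 IL-10-Fc library, Il1b was at 1.06 (adjusted p = 0.064) and Il33 at 0.85 (adjusted p = 0.079), and Ptgs2 was called at 0.89 (adjusted p = 0.03); the lone library is assumed there to vary like the other groups.

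BF10 against Ctrl-IgG sets the fusion beside the control, within the same limit. Il1a, Il33, Il18 and Tslp were higher, by 2.33 ± 0.43, 1.90 ± 0.46, 1.64 ± 0.29 and 1.12 ± 0.27 (SE, limma adjusted p of 0.0024 to 0.011, 3 against 3 libraries), and none was lower. The shares of all genes were 11.8% higher, 13.2% lower and 24.9% in either direction, and the medians were 0.36 over the 10 genes and -0.12 over all. Il1b was at 0.72 ± 0.57 (adjusted p = 0.40). That value rests on BF10 replicate 1, and it was 0.10 without that library. Without the 4 libraries of highest FPKM sum Il1b was at 0.07, Il33 at 1.18 and still called, and Il6 at -1.30 (-0.33 with all libraries, not called in either).

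Against aCSF1R, the antibody without IL-10, and within the same limit, BF10 had higher Il18 (2.00), Il1a (1.80), Il33 (1.55) and Tslp (1.27). Il1rn was lower in BF10 (-1.31 ± 0.38, SE, limma adjusted p = 0.027, 3 against 3 libraries). Of all genes 11.0% were called higher, 14.0% lower and 25.0% in either direction, with medians of 0.48 over the 10 genes and -0.21 over all. The Il1rn call was lost when any of aCSF1R replicates 1, 2 and 3 or BF10 replicates 1 and 2 was left out, at -1.34, -1.22, -1.38, -1.04 and -1.20. Il33 lost its call without aCSF1R replicate 1 (1.29) or replicate 2 (1.60) and without BF10 replicate 1 (1.21). The comparisons with Ctrl-IgG share their control libraries and this one shares the BF10 libraries, so the same genes in each are not separate evidence.

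**Figure D3:**
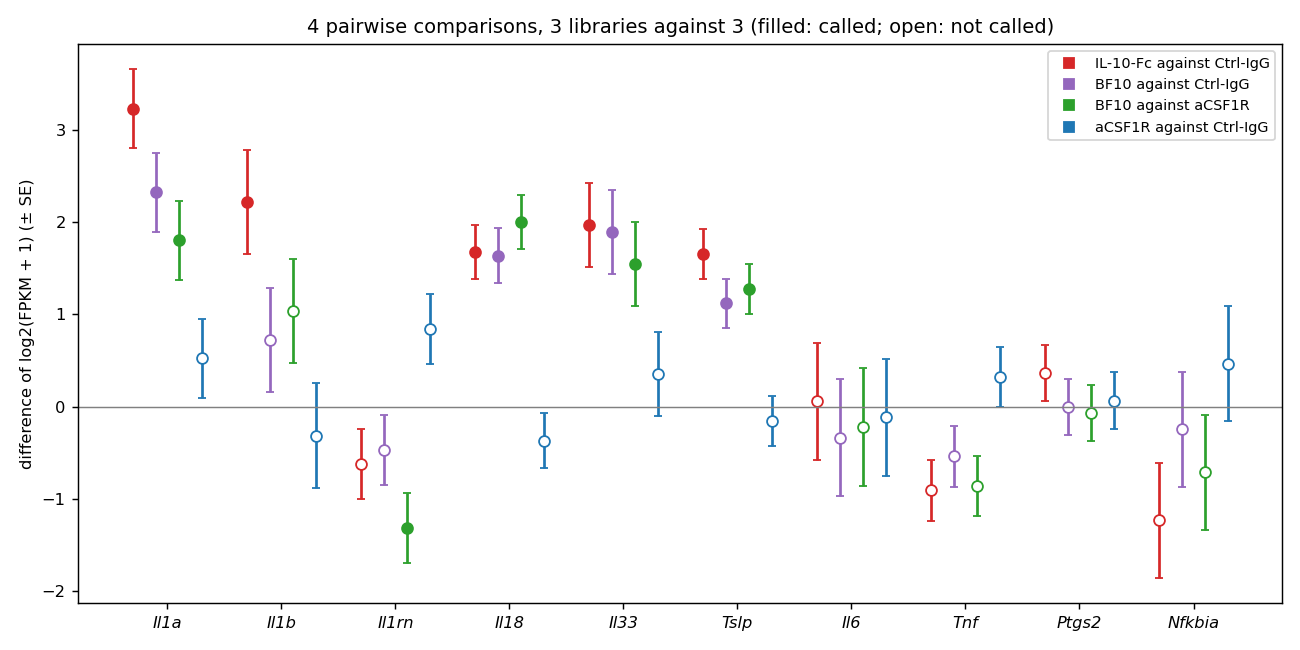
Difference of log2(FPKM + 1) (± SE) for each gene in 4 pairwise comparisons of 3 libraries with 3. Filled points passed the test and open points did not. Il1a, Il18, Il33 and Tslp are filled in each of the 3 comparisons of a group with IL-10 against a group without it. No point is filled for aCSF1R against Ctrl-IgG.

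The antibody without IL-10 called none of the 10 genes. In aCSF1R against Ctrl-IgG, 0 of the 10 passed in limma, 1 had an unadjusted p under 0.05, and the share of all genes called was 0%. The values ran from -0.37 ± 0.29 for Il18 to 0.84 ± 0.38 for Il1rn (SE, adjusted p = 0.96), so the higher Il1rn in each aCSF1R library than in each Ctrl-IgG library did not pass over all genes. BF10 against IL-10-Fc called 0 of the 10 in limma, with 1 at an unadjusted p under 0.05 and 0.0126% of all genes called. There Il1b was at -1.49 ± 0.57 (adjusted p = 0.48) and Nfkbia at 0.98 ± 0.62 (adjusted p = 0.48), while Il18 and Il33 differed by -0.04 ± 0.29 and -0.07 ± 0.46. The antibody part over all 12 libraries called 0 of the 10 (1 at an unadjusted p under 0.05, 0.00632% of all genes), with values from -0.90 for Il1b to 0.72 for Nfkbia. The departure of the fusion from the summed effects of its components also called 0 in limma (1 at an unadjusted p under 0.05, 0.00632% of all genes). Il1a had the largest departure of the 10, at -1.42 ± 0.60 (adjusted p = 1.0). The standard errors leave room for differences of 1.5-fold or more in most of these genes.

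The sums of markers of several other cells moved with the genes, although single markers did not all follow. In bulk tumour RNA, fewer cells of a type and less RNA per cell cannot be told apart. The summed FPKM of 8 neutrophil markers was 31.0 to 309 in Ctrl-IgG and 179 to 337 in aCSF1R, against 1031 to 4542 in IL-10-Fc and 531 to 1661 in BF10; Ngp was under 0.1 FPKM in each library without IL-10. Il1b, which neutrophils also make, was 220, 230, 129, 69.5, 41.6 and 28.4 FPKM in the 6 libraries with IL-10 when these are ordered from the highest neutrophil sum to the lowest. In IL-10-Fc replicate 1, S100a8 and S100a9 held 1892 and 2492 FPKM of the sum of 4542. S100a8, S100a9, Retnlg and Mmp8 fell along this order of libraries or nearly so. Csf3r, at 4.54, 1.66, 3.49, 12.9, 11.6 and 9.99 FPKM, did not. Nor did Cxcr2, at 1.1, 0.56, 0.8, 2.46, 2.6 and 2.34, or Ngp, at 28.2, 4.31, 6.86, 31.2, 39.0 and 33.7. Ly6g, at 6.55, 1.51, 0.7, 0.91, 0.76 and 0.99, fell over the first 3 and then lay between 0.76 and 0.99. Csf3r and Cxcr2 also overlapped the libraries without IL-10. The 3 highest neutrophil sums were in libraries of high FPKM sum. Ctrl-IgG replicate 2, also of high FPKM sum, had a neutrophil sum of 43.6 and an Il1b of 30.6. Over the 6 libraries without IL-10, ordered by neutrophil sum from 337 to 31.0, Il1b was 27.4, 38.2, 33.6, 18.1, 30.6 and 28.0. The part of neutrophil RNA in the Il1b result was not tested.

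**Figure D4:**
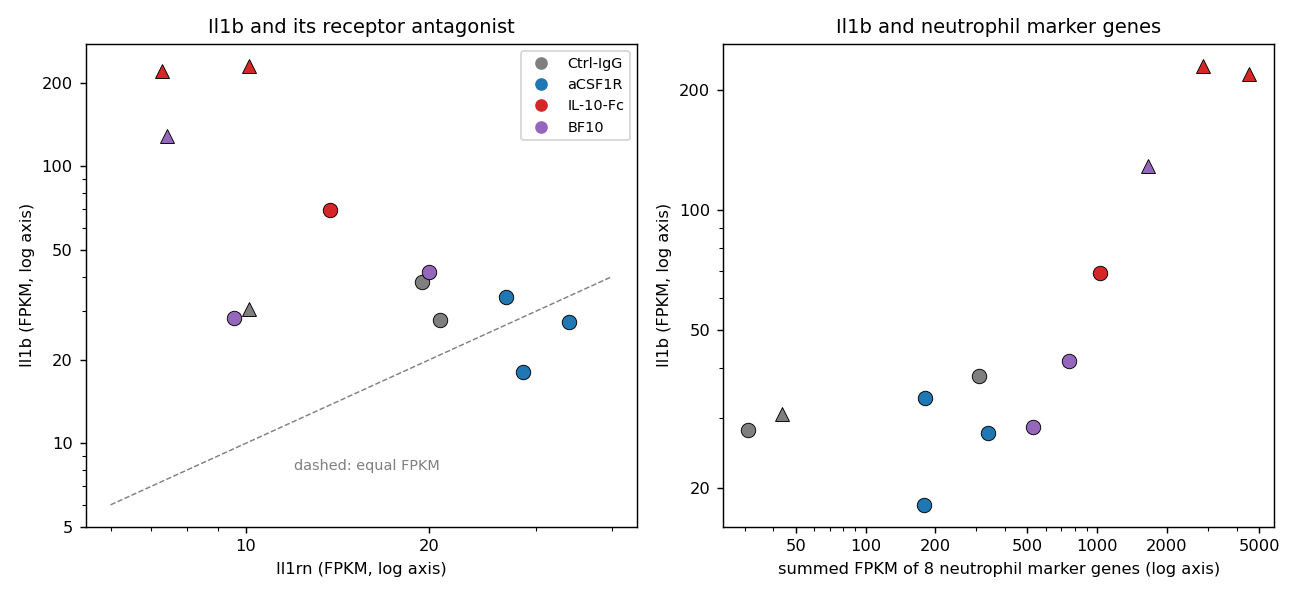
Il1b FPKM against Il1rn FPKM (left) and against the summed FPKM of 8 neutrophil markers (right) in the 12 libraries, all axes logarithmic, coloured by group, with triangles for the 4 libraries of highest FPKM sum. The 4 libraries of highest Il1b, from 69.5 to 230 FPKM, are also the 4 with neutrophil sums of 1031 or more.

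For the alarmins, the sums of epithelial and stromal markers differed between the sides as well. The 6 simple epithelium markers summed to 0.90 to 9.11 FPKM without and 598 to 1577 with IL-10, with Krt18 under 0.1 in each library without it. The 6 fibroblast markers summed to 163 to 607 without and 1014 to 2308 with IL-10, and the 9 macrophage markers to 256 to 795 and 817 to 1288. Not every marker followed its sum. Col1a1, Col1a2, Col3a1 and Lum were higher with IL-10 without overlap, and Dcn overlapped. Pdgfra was instead 14.0 to 25.5 FPKM without and 5.99 to 16.8 with IL-10. Of the macrophage markers, C1qa, C1qc and Mrc1 were higher without overlap, and the others, Cd68 among them, overlapped. The 11 keratinocyte markers were instead highest in Ctrl-IgG replicate 3 and aCSF1R replicates 1 and 2, with sums of 1566 to 2110 against at most 36.8 elsewhere, and Il1a was 1.14 to 1.88 FPKM and Tslp 0.37 to 0.61 in those 3 libraries. The part of simple epithelium and fibroblasts in the alarmin values was not tested. T cell sums were 15.4 to 21.7 without and 19.3 to 69.2 with IL-10, with the higher values in BF10.

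Around the 10 genes, 6 lists of partners were counted in the comparison of the 6 libraries with and the 6 without IL-10, where 14.6% of all genes were called higher and 28.6% lower. Of 21 tested genes of the IL-1 family and its processing, 4 were higher and 4 lower (19% each), with a median log2 difference of 0.10 beside -0.30 over all genes. Il1rl1, which encodes ST2, the receptor of IL-33, fell by 4.45 on the log2 scale (SE 0.49, limma adjusted p = 3.9e-05). It was 78.7 to 111 FPKM without IL-10 and 1.23 to 27.1 with it, while its ligand Il33 was higher. Gsdmd, the pore protein through which IL-1β leaves cells, was higher by 2.24, and the DNA sensor Aim2 lower by a difference of -1.73. The signalling receptor Il1r1 was higher at 1.42. Casp1 and Nlrp3 did not pass, at 0.47 and 0.05.

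Among 12 receptors and shedding factors for IL-6, TNF and TSLP, 1 was higher (8.33%) and 3 lower (25%), with a median of -0.32, near the values over all genes. Traf2 (-1.29) and Tnfrsf1a (-1.28), an adaptor and the main receptor of TNF, and Adam17 (-1.01), the protease that sheds TNF, were lower, although Adam17 was not called without the 4 libraries of highest FPKM sum (-0.32). Among 19 NF-kB subunits, inhibitors and feedback genes, 3 were higher (15.8%) and 5 lower (26.3%), also near the shares of all genes, led by Nfkbid (-1.74), a nuclear IκB protein, the phosphatase gene Dusp1 (-1.26) and Tnfaip3 (1.22), which encodes the inhibitor A20. Like Nfkbia, Tnfaip3 is a feedback target of NF-kB. The list median was -0.51.

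In prostaglandin synthesis, breakdown and receptors, 4 of 15 tested genes were higher (26.7%) and 5 lower (33.3%), with a median of 0.40, while Ptgs2 did not pass. Of the 5 lower genes, Pla2g2e passed the low-value filter only through the libraries without IL-10, so the lower count carries this limit. Slco2a1, which carries prostaglandins into cells, was higher by 3.40 and Pla2g4a, which frees arachidonic acid, by 2.36. Ptges, the synthase that acts after COX-2 to make prostaglandin E2, fell by 2.19, from 35.6 to 65.2 FPKM without IL-10 to 5.88 to 20.8 with it.

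Of 13 genes of the IL-10 receptor and response, 0 were higher and 2 lower (15.4%) in limma, with a median of -0.50. Hmox1, heme oxygenase, fell by 2.59 and Etv3 by 0.85, and Etv3 was not called with size factors (-0.58). Socs3 and Il10ra, a STAT3 target and the IL-10 receptor chain, did not pass at 0.31 and 0.23. Of 12 tested other genes that IL-10 represses in macrophages, 3 were higher (25%) and 1 lower (8.33%), with a median of -0.04. Of the 3 higher genes Csf3 and Csf2 passed the low-value filter only through the libraries with IL-10, so this count is no support. Csf3, the neutrophil growth factor G-CSF, had the largest difference at 5.27 ± 0.41 (SE), with 0.16 to 1.41 FPKM without and 18.8 to 173 with IL-10. Il23a (2.40) and Csf2 (1.45) were higher, and Ccl4, which the naming rule did not reach, was the 1 called lower (-1.43). Il12a and Il12b stayed under the low-value filter. Of the 35 genes called over the 6 lists, 30 were still called with size factors and 28 without the 4 libraries of highest FPKM sum, and 0 changed direction. Without those 4 libraries Csf2 was under the low-value filter and was not tested.

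**Figure D5:**
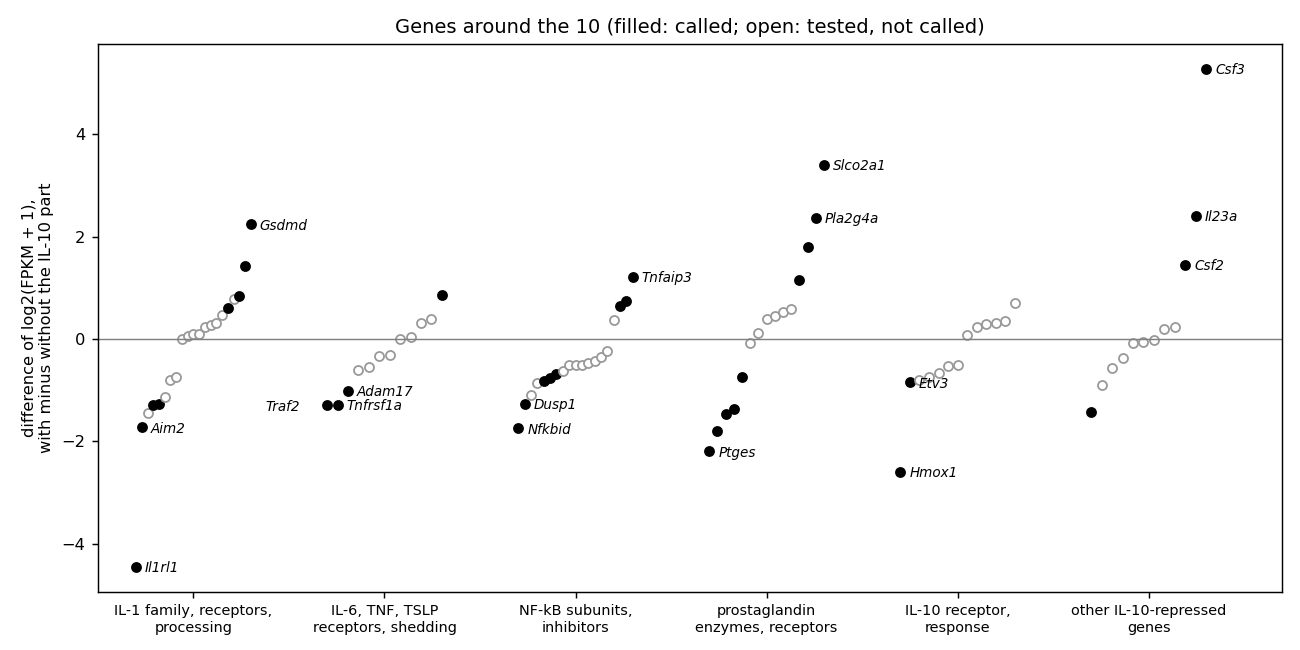
Difference of log2(FPKM + 1) with minus without the IL-10 part for each tested gene of the 6 lists, in order of value within a list; filled points passed the test. The up to 3 largest called differences of each list are named, from Il1rl1 at -4.45 to Csf3 at 5.27.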

How the data were processed

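Tumour mRNA was measured in 12 libraries, 3 for each of 4 treatments, grouped by the treatment label. Libraries were numbered within a group by accession order, which pairs none of them; nothing in the labels says that the libraries of a group came from separate animals, so p-values measure the spread between these samples. The labels give the number of doses as 6 in one place and 4 in another, begun at a tumour volume of 100 mm3. The authors used stranded mRNA libraries and the GRCm38 build, and the submitters' processing notes name STAR 2.7.5a, RSEM 1.3.3 and DESeq2 1.30.0. The authors deposited FPKM per gene and library, not scaled between libraries. Their comparison tables, with fold changes and p-values from DESeq2, were not used here. FPKM give no counts, so the depth behind single values is unknown; relative depth, from the steps of low values, ranged from 0.938 to 1.36.

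The 15813 genes that reached 1 FPKM in 3 or more libraries were fitted as log2(FPKM + 1) with limma 3.58.1 (eBayes with trend) in R 4.3.3, all 12 libraries in one fit without covariates, as differences of group means. Fold changes are on that scale, which understates changes of low genes. Adjustment was by Benjamini-Hochberg across all genes. In simulated libraries, 72% of 200 genes changed by 2 on the log2 scale between BF10 and Ctrl-IgG were called, with 8 false calls. Gene positions were from GENCODE M21 (GRCm38) and promoters from RefSeq. The alternatives were another pseudocount (0.1), 2 other filters, TPM, median-of-ratios size factors, the FPKM sum as covariate, fits of only the groups compared, and each library left out. Leaving out the 4 libraries of highest FPKM sum, each number of the title code as a term (with the IL-10 part as the only treatment term) and the Il1b to Il1rn ratio were chosen after seeing the data. The 10 genes and the lists were chosen with earlier results of these data known. All 10 genes are named; of each list, up to 3 called genes of largest change are named. Il1r1, Ccl4, Casp1, Nlrp3, Socs3 and Il10ra were named outside this rule, after their values were seen. Genes of most similar pattern were the 3 with the highest Pearson correlation, predicted genes left out.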

Additional observations from a re-analysis of the deposited data

How the results depend on the processing

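No paired analysis was possible because no 2 sample titles end in the same full code, what its numbers stand for is not stated, and the replicate numbers used here follow sample order. No gene was below the low-value filter, so the test planned for such genes was not run. The count of the 10 genes called moved by no more than 1.5 times in 155 of 159 alternatives over the 8 comparisons. For the 4 comparisons that called 0, this means only that the count stayed at 0. A left-out library outside a pairwise comparison leaves its difference as it was. Leaving out 1 library gave 3 to 6 for BF10 against aCSF1R (5 with all) and 4 to 7 for IL-10-Fc against Ctrl-IgG (5 with all). It gave 7 to 8 for the IL-10 part (7 with all), 4 in each case for BF10 against Ctrl-IgG, and 0 for the other 4. In the IL-10 part, 3 of the 10 were called with the first number of the title code as a term, beside 3516 of all 15813 genes. With the second number 7 of the 10 were called, beside 6882 of the 15813. Of single values, 698 of 763 kept direction and side of the threshold, 18 lost their call, 12 gained one and 35 changed sign, and none of those 35 was called. The sign of Il6 changed with size factors (0.23) and the second title number (0.24) in the IL-10 part, and in IL-10-Fc against Ctrl-IgG with TPM (-0.12), the covariate (-0.38) and without the 4 libraries of highest FPKM sum (-0.59). Ptgs2 changed sign in BF10 against Ctrl-IgG with TPM (0.028), size factors (0.049) and the covariate (0.0038), and against aCSF1R with size factors (0.12). Nfkbia changed sign without the 4 libraries in BF10 against IL-10-Fc (-0.21), the antibody part (-0.094) and the departure from the sum (-0.23), and there also with the covariate (-0.031). With 1 library left out, Il6 ran from -0.46 to 0.21 (IL-10 part), -0.32 to 0.64 (IL-10-Fc against Ctrl-IgG), -1.09 to 0.25 (BF10 against Ctrl-IgG) and -0.98 to 0.16 (BF10 against aCSF1R); Ptgs2 from -0.22 to 0.14 and -0.29 to 0.071 in the last 2, and Nfkbia from -0.69 to 0.15 in BF10 against Ctrl-IgG. Il1rn lost its call in BF10 against aCSF1R with TPM (-1.41), and Il33 with all genes above 0 FPKM (1.55). With the covariate Il1b (0.82) and Tnf (-0.59) were called in BF10 against Ctrl-IgG, and Tnf (-0.73) against aCSF1R, where it was also called in a fit of only those groups (-0.86) and without the 4 libraries (-0.66); the pseudocount of 0.1 called Tnf in IL-10-Fc against Ctrl-IgG (-1.46). The cause of these changes was not tested. Counts over all genes moved more: at a mean of at least 5 FPKM 2135, 2121, 4334 and 3450 genes were called in BF10 against Ctrl-IgG, BF10 against aCSF1R, the IL-10 part and IL-10-Fc against Ctrl-IgG (3941, 3955, 6832 and 5326 as reported), in the first 2 the covariate gave 6901 and 6740 and leaving out the 4 libraries 6257 and 6291, a fit of only its groups gave 2734 for the last, and the first title number gave 3516 for the IL-10 part. BF10 against IL-10-Fc called 2 genes, 4 with size factors, 12 without the 4 libraries and 109 without BF10 replicate 1, where the antibody part called 46 and the departure 26 (1 each as reported). The 1 library left for IL-10-Fc without the 4 libraries limits every value given there.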

Other observations

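The genes whose log2(FPKM + 1) followed each of the 10 most closely over the 12 libraries are given as a description, since the libraries share the split between those with and without IL-10. Il1a was closest to Arg2, an arginase (Pearson r = 0.985), and Tslp to Mlf1 (r = 0.992) and the neutrophil-associated cystatin gene Stfa2 (r = 0.984). Il1b was closest to Ifitm1 (r = 0.968), Il1rn to Mir27a (r = 0.98) and Ggnbp1 (r = 0.967), Il18 to Nme3 (r = 0.984), Il33 to Prdx5 (r = 0.969) and Tnf to Tubb2a (r = 0.977). Nfkbia had the closest partners of all, Cc2d1b (r = 0.996), Tm7sf3 (r = 0.995) and Brd2 (r = 0.993), and its values were lowest in the 4 libraries of highest FPKM sum. Il6 and Ptgs2 had no partner as close: the highest r was 0.786 for Il6, with Abhd5, and 0.761 for Ptgs2, with Mir7673. Mir27a and Mir7673 are microRNA genes, which mRNA libraries measure poorly.

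Among the 10 genes themselves, Il1a with Tslp (r = 0.959) and Il18 with Tslp (r = 0.945) had the highest r, Tnf with Nfkbia had 0.878, and Tnf with Tslp had the most negative (r = -0.855). The mouse Il10 gene, which reports none of the human IL-10 given, was 0.67 to 1.62 FPKM without and 0.74 to 2.96 with IL-10, and the sides overlapped. Csf1r, the antibody's target, was 6.91 to 22.1 FPKM without IL-10 and 11.7 to 79.1 with it. BF10 replicate 3 was the only library with both Xist (23.7 FPKM) and more than 1 FPKM of Eif2s3y (3.29), and it also held the highest Il1rl1 of the libraries with IL-10 (27.1).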
